A study of Sus scrofa with 4 samples.

Results

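The MAP kinase cascade and its dual-specificity phosphatases were described across 2 lists of histone H4 lysine 12 lactylation (H4K12la) peaks from sow liver. The genes were taken by symbol from the RefSeq annotation of the pig genome Sscrofa11.1: the kinases named MAPK, MAP2K, MAP3K and MAP4K, the MAPKAPK kinases, the MAPK8IP scaffolds and the DUSP phosphatases. The rule found 72 coding genes of 16509 with a name. DUSP26 lies on an unplaced sequence and could not be matched to peaks, which left 71 of 16303 genes on chromosomes.

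MAP kinases work in tiers. A MAP4K or a small GTPase activates a MAP3K, which phosphorylates a MAP2K, which in turn phosphorylates a MAPK on a threonine and a tyrosine. The main branches end in the ERKs, which answer mostly to growth factors, and in the JNKs and p38 kinases, which answer mostly to stress and cytokines. JNK phosphorylates c-JUN, the protein that the series names in its title. Dual-specificity phosphatases of the MKP type take the phosphates off again, and several of their genes are switched on by the kinases they oppose. In liver, these pathways take part in regeneration, in inflammation and in the repression of bile acid synthesis.

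The samples were livers of female sows in late gestation from a high bile acid group and from a low (normal) bile acid group. Each group had 1 library immunoprecipitated with an antibody against H4K12la and 1 input library, 4 samples in all, and the cell type was labelled hepatocytes. The labels name no allele, agent, age or breed and do not say how many animals a library holds. Peaks had been called for each immunoprecipitated library on its own, so differences between the groups cannot be set against a spread of replicates, and no p-value between them was computed.

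The high list held 28283 peaks and the low list 5735, with median folds of 2.90 and 2.98. Folds are the enrichment over local background that the authors' caller gave at each summit, and q is its adjusted p-value for the peak within the library. At q under 0.05 were 608 peaks of the high list and 13 of the low list. The median peak rested on 9 fragments in the high list, against 10 in the low list, as recovered from fold and p. Of 10 hepatocyte markers, a gene-end peak was found at TTR alone in the high list and at none in the low list. Gene-end peaks were also found at 1 of 5 endothelial markers in the high list, CDH5, and at none of the cholangiocyte, Kupffer cell or stellate cell markers in either list. The gene-end shares over every named coding gene were 16.5% (high) and 3.13% (low). In the gene or within 10 kb, the high list marked 6 of 10 hepatocyte and 5 of 5 endothelial markers (background 62.5%). It marked 3 of 5 Kupffer cell, 3 of 5 stellate cell and 0 of 4 cholangiocyte markers. The low list marked 1 hepatocyte, 1 endothelial, 1 Kupffer cell, 1 cholangiocyte and 2 stellate cell markers there (background 21.9%). A mark at a gene is not its expression, and which cells gave the chromatin was not tested.

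Peaks were assigned by their summit in 3 overlapping ways. A gene-end peak lies within 1 kb of either end of the gene, a body peak lies inside the gene, and a 10 kb peak lies inside it or within 10 kb of it. The annotation used gives no strand, so which end holds the start site was not told apart. Among the 71 genes, the high list placed a gene-end peak at 17 (23.9%, 95% interval 14.6 to 35.5%), against 16.5% of all 16303 named coding genes. In the low list 2 had one (2.82%, 0.343 to 9.81%), against 3.13%. Body peaks were found in 36 genes of the high list (50.7%, 38.6 to 62.8%, background 44.6%) and in 16 of the low list (22.5%, 13.5 to 34%, background 14.9%). Within 10 kb, 55 genes had a high-list peak (77.5%, background 62.5%) and 19 had a low-list peak (26.8%, 16.9 to 38.6%, background 21.9%). The share of all genes lay inside the interval of the gene-end and body shares of both lists and of the 10 kb share of the low list. The 95% interval of the 10 kb share in the high list was 66 to 86.5%. These intervals are exact Clopper-Pearson intervals that treat genes as independent and cover counting error only. Cut to the 5735 peaks of smallest p, the high list marked 18 of the 71 genes within 10 kb (25.4%), against 23.9% of all genes.

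**Figure D1:**
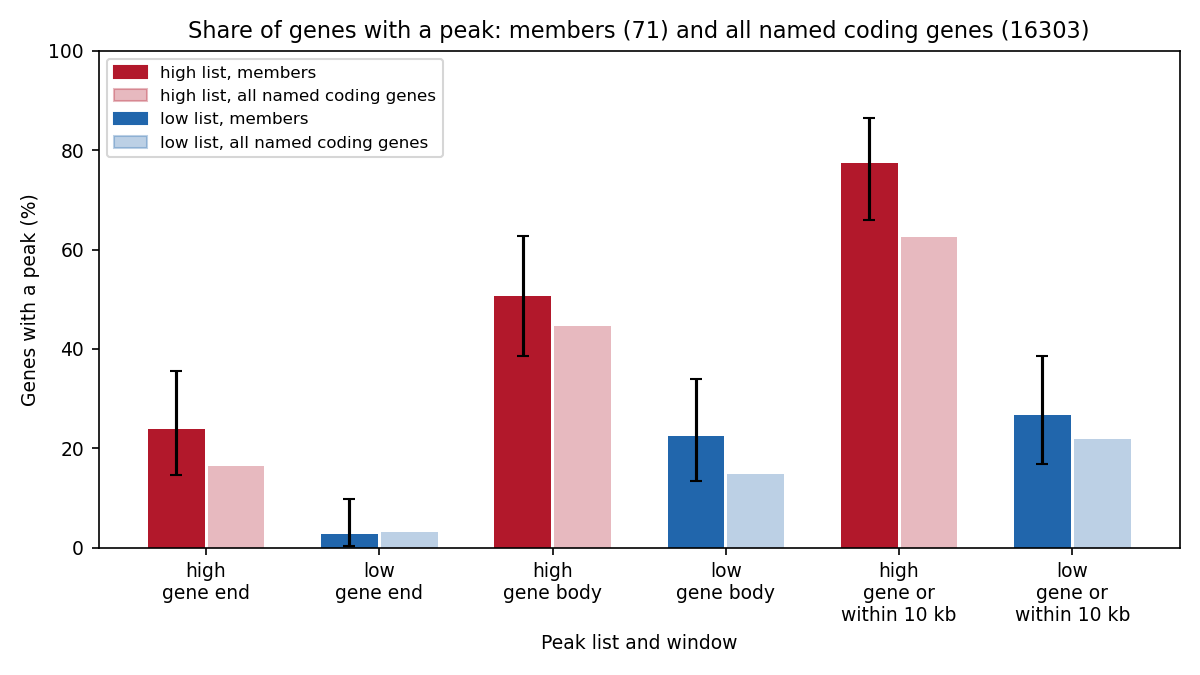
Share of genes (%, y axis) with an H4K12la peak at a gene end, in the gene body, or in the gene or within 10 kb, in the high list (red) and the low list (blue). Solid bars are the 71 MAP kinase cascade and DUSP genes with exact 95% intervals, and pale bars are all 16303 named coding genes; the solid bar is the taller for the 10 kb window of the high list (77.5% against 62.5%) and close to the pale one at gene ends of the low list (2.82% against 3.13%).

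Every placed gene falls into 1 of 4 classes by the 10 kb window. A peak in both lists was found at 16 genes (22.5%, against 16.5% of all named coding genes) and in the high list only at 39 (54.9%, against 46%). A peak in the low list only was found at 3, MAP3K7, MAP4K5 and MAPK6 (4.23%, against 5.39%), and in neither list at 13 (18.3%, against 32.1%). The 39 and the 3 are differences of calls between lists of unequal length, not tested differences in the mark. The 55 genes of the high list shared 109 peaks of fold 1.91 to 4.79 (median 2.85), and the 19 genes of the low list had 23 peaks of fold 2.28 to 3.83 (median 3.04). At q under 0.05 were 3 of the 109 peaks, at DUSP8, MAPKAPK5 and DUSP1, and none of the 23. Over all peaks of the high and the low list, 2.15% and 0.227% had such a q.

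**Figure D2:**
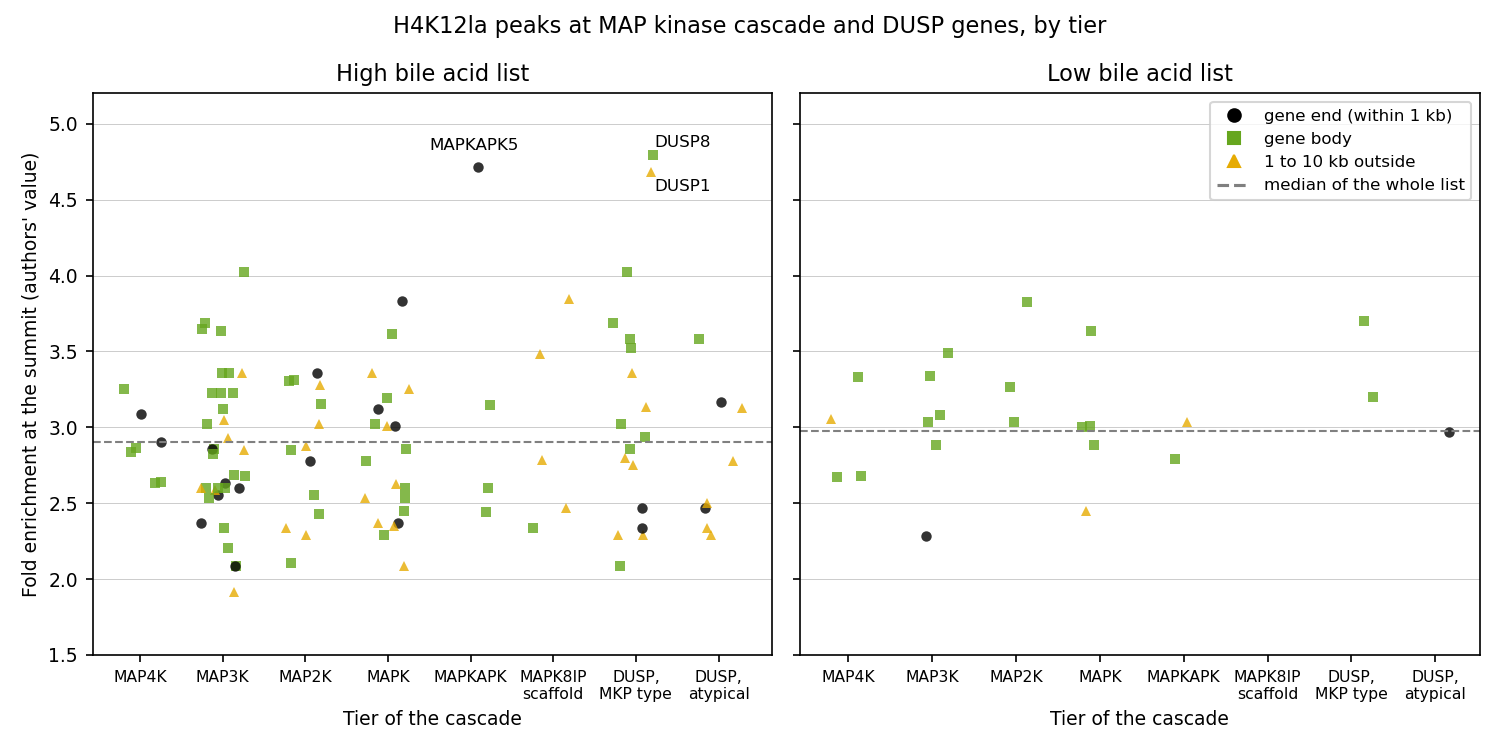
Fold enrichment at the summit (y axis, authors' value) of every peak in or within 10 kb of a member gene, by tier of the cascade (x axis), in the high list (left) and the low list (right). Points stand for gene-peak pairs, with circles at gene ends, squares in gene bodies and triangles outside the gene; only DUSP8, MAPKAPK5 and DUSP1 lie above a fold of 4.5, all in the high list.

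At the top of the cascade, 3 of the 5 MAP4K genes had a high-list peak within 10 kb and 2 had a low-list peak. Over all named coding genes these shares were 62.5% and 21.9%. MAP4K1, which encodes the blood-cell kinase HPK1, had a gene-end peak of fold 3.09 (q 0.258), which also lay within 1 kb of an end of EIF3K. MAP4K3, a kinase that also signals amino acid supply, had one of fold 2.90 (q 0.33), 281 bp inside the gene and within 1 kb of an end of TMEM178A. Neither had a low-list peak. MAP4K4, an activator of JNK signalling 166453 bp long, carried 5 high-list body peaks of fold 2.63 to 3.25 and 3 low-list body peaks of fold 2.67 to 3.33, none of which overlapped. MAP4K5 had 1 low-list peak 8022 bp outside the gene (fold 3.05), within 1 kb of an end of LOC110262146. MAP4K2 had no peak in either list.

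Of the 18 MAP3K genes, 15 had a high-list and 5 a low-list peak within 10 kb (background 62.5% and 21.9%). At gene ends the background was 16.5% and 3.13%. Gene-end peaks were found at 5 MAP3K genes in the high list, MAP3K1, MAP3K5, MAP3K9, MAP3K10 and MAP3K14, and at MAP3K10 in the low list. The folds at these ends were modest, from 2.09 to 2.86 in the high list, all below the median of that list. MAP3K1, which encodes the JNK activator MEKK1, had a fold of 2.56 (q 0.50) on 8 fragments, 333 bp inside the gene. MAP3K5, which encodes the redox-sensitive kinase ASK1, had a gene-end fold of 2.09 (q 0.626), a high-list peak of fold 3.36 lying 6063 bp outside the gene, and a low-list body peak of fold 3.34 (q 1). Its peak outside the gene lay within 1 kb of an end of MAP7. MAP3K14 (NIK, a kinase of the non-canonical NF-kappaB pathway) and the mixed-lineage kinase gene MAP3K9 had gene-end folds of 2.86 and 2.60 in the high list and no low-list peak. MAP3K9 also carried 2 high-list body peaks of fold 3.65 and 3.36.

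MAP3K10, which encodes the mixed-lineage kinase MLK2, was the member with gene-end peaks in both lists and the member whose peaks overlapped. The high-list peak spans 48526354 to 48527069 on chromosome 6, with a fold of 2.63 (q 0.402), and the low-list peak spans 48527018 to 48527441, with a fold of 2.28 (q 1). Their summits lie 699 bp apart, on either side of 1 gene end. The low-list peak rested on 17 fragments, which the caller multiplied by 0.881. Its expected number on the caller's scale was 6.0, the highest among all member peaks. For the high-list peak, whose scale was 1, it was 9 fragments over 2.80 expected. A high expected number and the overlap fall together here, and its part in the overlap was not tested. A second high-list gene-end peak of MAP3K10, of fold 2.37, lay 564 bp outside the other end.

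The highest folds of this tier lay in gene bodies. MAP3K4 (MEKK4, activated by GADD45 proteins) carried 4 high-list body peaks, the strongest of fold 4.03 (q 0.0735, 11 fragments), and 2 low-list body peaks of fold 3.04 and 3.08. MAP3K8, which encodes the ERK activator TPL2 of inflammatory signalling, had high-list folds of 3.64 (q 0.0735) and 2.34 and a low-list fold of 3.49 (q 1), all with summits within 10185 bp of the gene end of higher coordinate. MAP3K2, an activator of the ERK5 branch, had high-list folds of 3.36 and 2.83 and no low-list peak. MAP3K7, which encodes TAK1 of TGF-beta and cytokine signalling, had the reverse pattern, with 1 low-list body peak of fold 2.89 and its nearest high-list summit 201953 bp away. The other MAP3K genes with high-list peaks, MAP3K3, MAP3K6, MAP3K11, MAP3K12, MAP3K13, MAP3K19 and MAP3K21, had no low-list peak within 10 kb. MAP3K15 and MAP3K20 had none in either list.

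All 7 MAP2K genes had a high-list peak within 10 kb, and MAP2K1 and MAP2K5 also had low-list peaks. The median length of the tier was 87422 bp, and of all named coding genes of 60 kb and over, 76.5% had a high-list and 37.1% a low-list peak in that window. MAP2K1, which encodes the ERK kinase MEK1, had high-list folds of 2.78 (q 0.381) at 278 bp inside one gene end and 3.31 (q 0.232) in the body. Its low-list peak lay 53012 bp from the nearer of these summits, at chromosome 1, 164462799 to 164463144. It had a fold of 3.83 (q 0.735) on 14 fragments, the highest fold among the low-list member peaks and place 118 of 5735 by p. MAP2K2, which encodes MEK2, had a high-list body fold of 3.16 and 2 peaks of fold 2.29 and 2.88 outside the gene. MAP2K3, which activates p38, had the strongest gene-end peak of the tier in the high list, at 3.35 (q 0.139), with a body peak of 3.30 and one of 3.28 outside. The outside peak lay within 1 kb of an end of KCNJ12. MAP2K6, the other p38 kinase, had high-list folds of 2.1 in the body and 3.02 outside.

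The kinases that activate JNK directly had weak calls. MAP2K4, which phosphorylates JNK and p38, had 1 high-list body peak of fold 2.56 (q 0.50) on 7 fragments. MAP2K7, which is specific to JNK, had 1 high-list peak at 6438 bp from the gene, of fold 2.34 (q 0.548). Neither had a low-list peak. MAP2K5, the ERK5 kinase, had body folds of 2.85 and 2.43 in the high list and 3.27 and 3.04 in the low list, and its closest summits of the lists lay 2393 bp apart.

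Of the 13 MAPK genes, 9 had a high-list and 5 a low-list peak within 10 kb (background 62.5% and 21.9%). Gene-end peaks were found at MAPK12, MAPK14 and MAPK15 in the high list and at none in the low list (background 16.5% and 3.13%). The JNK genes had few peaks. MAPK8 (JNK1) had none in either list: the nearest high-list summit lay 155360 bp and the nearest low-list summit 15064 bp from the gene. MAPK9 (JNK2) had 1 high-list peak at 8585 bp from the gene, of fold 2.63 (q 0.50). MAPK10 (JNK3), the longest member at 305758 bp, had 1 body peak of fold 2.60 in the high list and 1 of fold 2.89 in the low list.

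Among the p38 genes, MAPK14, which encodes p38 alpha, carried 3 high-list peaks. They had folds of 3.12 (q 0.232, 11 fragments) at 572 bp inside one gene end, 3.02 in the body and 2.08 outside the gene, and the first also lay within 1 kb of an end of SLC26A8. Its low-list peak was in the body, with a fold of 3.0 (q 1). MAPK11 (p38 beta) and MAPK12 (p38 gamma) are neighbours on chromosome 5 with a gap of 1532 bp and shared the same 3 high-list peaks. MAPK12 held gene-end peaks at both ends, of fold 3.01 and 2.37, and the third, of fold 2.54, lay in the body of MAPK11. MAPK13 (p38 delta), which lies 19099 bp from MAPK14, had no peak in either list.

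MAPK3 (ERK1) had 1 high-list peak, of fold 3.36 (q 0.232) at 4502 bp outside the gene, and none in the low list. MAPK7 (ERK5) had none. The atypical kinases MAPK15, MAPK4 and MAPK6 were not alike in their peaks. MAPK15 (ERK8) had the strongest gene-end peak of the tier, with a high-list fold of 3.84 (q 0.0743) on 11 fragments, 774 bp inside the gene, and a low-list peak of fold 2.45 outside it. MAPK4 (ERK4), a gene of 184166 bp, carried 5 high-list body peaks of fold 2.29 to 3.61 and 1 low-list body peak of 3.01. MAPK6 (ERK3) had a low-list body peak of fold 3.64 (q 1, 11 fragments) and its nearest high-list summit 32252 bp away.

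Below the MAP kinases, MAPKAPK5 had the strongest gene-end peak among all members. MAPKAPK5 encodes MK5, a kinase that binds ERK3 and ERK4. Its high-list peak spans 39885531 to 39885969 on chromosome 14, with the summit 137 bp inside the gene and within 1 kb of an end of the uncharacterised LOC102160475. It had a fold of 4.72 (q 0.00204) on 16 fragments (95% interval 9.15 to 26.0) over 2.61 expected, place 30 of 28283 by p. In the low list MAPKAPK5 had 1 peak at the opposite side, 8561 bp outside the gene, of fold 3.04 (q 1). MAPKAPK2, which encodes MK2, the p38 target that stabilises cytokine mRNAs, had 3 high-list body peaks of fold 2.44 to 3.15 and 1 low-list body peak of 2.79. MAPKAPK3 had none.

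No scaffold of JNK was marked at a gene end (background 16.5% in the high list), and 4 of their 5 high-list peaks lay outside the gene. MAPK8IP3 (JIP3), which also links JNK signalling to kinesin transport, had high-list peaks of fold 3.85 (q 0.0735) and 3.48 at 6681 and 8450 bp outside the gene, the stronger within 1 kb of ends of SPSB3 and EME2, and a body peak of 2.34. MAPK8IP1 (JIP1) and MAPK8IP2 (JIP2) each had 1 high-list peak, of fold 2.79 and 2.47, at 8150 and 9318 bp outside and next to ends of PEX16 and ARSA. None of the 3 had a low-list peak. The 3 peaks next to ends of other genes lie closer to those genes than to the scaffolds.

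Of the 3 member peaks with q under 0.05, 2 lay at phosphatases of the MKP type. At that threshold 4.23% of the 71 members had a high-list peak within 10 kb, against 3.59% of all named coding genes. Whether the tiers differ in this was not tested. Of the 10 MKP-type genes, 9 had a high-list peak within 10 kb and 2 had a low-list peak (background 62.5% and 21.9%). Their median length was 12138.5 bp, against 25605 bp for all named coding genes. Of all named coding genes under 20 kb, 53.5% had a high-list and 13.7% a low-list peak in that window. DUSP8, a phosphatase of JNK and p38, had a high-list peak at chromosome 2, 1007610 to 1008125, 1254 bp inside the gene. It had a fold of 4.79 (q 0.00484) on 14 fragments, the highest fold of all member peaks and one of 36 high-list peaks at or above that value. A further high-list peak of fold 2.75 lay 6852 bp outside the gene. DUSP8 also had the second strongest low-list member peak, of fold 3.70 (q 0.637) on 15 fragments, at 1011150 to 1011493 and 3508 bp from the high-list summit. It ranked 100 of 5735 by p and 315 by fold. DUSP8 thus had peaks called in both lists at different positions of a gene of 15856 bp, and only a high-list peak had q under 0.05.

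DUSP1, which encodes MKP-1, an immediate early phosphatase of p38 and JNK, had a high-list peak at 3055 bp from the gene, on chromosome 16, 51454664 to 51455100. It had a fold of 4.68 (q 0.0106) on 13 fragments, and the nearest low-list summit lay 54360 bp from the gene. DUSP10 (MKP-5) carried 4 high-list body peaks, the strongest of fold 4.03 (q 0.0735), and no low-list peak within 10 kb. DUSP16 (MKP-7), also a phosphatase of JNK and p38, had high-list body folds of 3.02, 3.52 and 3.69 and a low-list body fold of 3.20, all with summits within 36207 bp of the gene end of higher coordinate in a gene of 91938 bp.

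The ERK phosphatases DUSP5, DUSP6, DUSP7 and DUSP9 had folds below 4, a value that 3.15% of all high-list peaks reached. DUSP16 of the JNK and p38 phosphatases also stayed below it. DUSP2 and DUSP4, given last, were not counted in the ERK branch. DUSP5, a nuclear ERK phosphatase, had a gene-end fold of 2.47 (q 0.531) and a body fold of 3.58 (q 0.139) in the high list. Its gene-end peak was also within 1 kb of an end of LOC110256730. DUSP9 (MKP-4), on chromosome X, had a gene-end fold of 2.34 (q 0.548), 328 bp outside the gene. DUSP6 (MKP-3) and DUSP7 (MKP-X) had high-list peaks of fold 3.13 and 2.29 at 6709 and 7725 bp outside the genes. DUSP2 (PAC-1), an inducible nuclear phosphatase, had 3 high-list peaks outside the gene, the strongest of fold 3.36 at 1056 bp. None of these genes had a low-list peak within 10 kb, and DUSP4 (MKP-2) had none in either list.

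Of the 12 placed atypical DUSP genes, 7 had a high-list peak within 10 kb and 1 a low-list peak (background 62.5% and 21.9%). DUSP14 had a high-list gene-end peak of fold 3.17 (q 0.232), 335 bp inside the gene, and DUSP22, an activator of JNK signalling, one of 2.47 (q 0.531), 506 bp outside, with a further peak of 3.12 at 5091 bp. DUSP3 (VHR), a phosphatase of ERK and JNK, had peaks of the lists near opposite ends: the high-list peak of fold 3.58 (q 0.13) lay 1187 bp inside one end, and the low-list peak of fold 2.97 (q 1) lay 310 bp inside the other. This low-list peak was also within 1 kb of an end of C12H17orf105. DUSP11, an RNA phosphatase, DUSP28, DUSP23 and DUSP13 had single high-list peaks outside the gene, of fold 2.78, 2.50, 2.34 and 2.29. The peak of DUSP11, 9557 bp from the gene, lay within 1 kb of an end of TPRKB. That of DUSP13 lay within 1 kb of an end of SAMD8. DUSP12, DUSP18, DUSP19, DUSP21 and DUSP27 had none in either list.

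**Figure D3:**
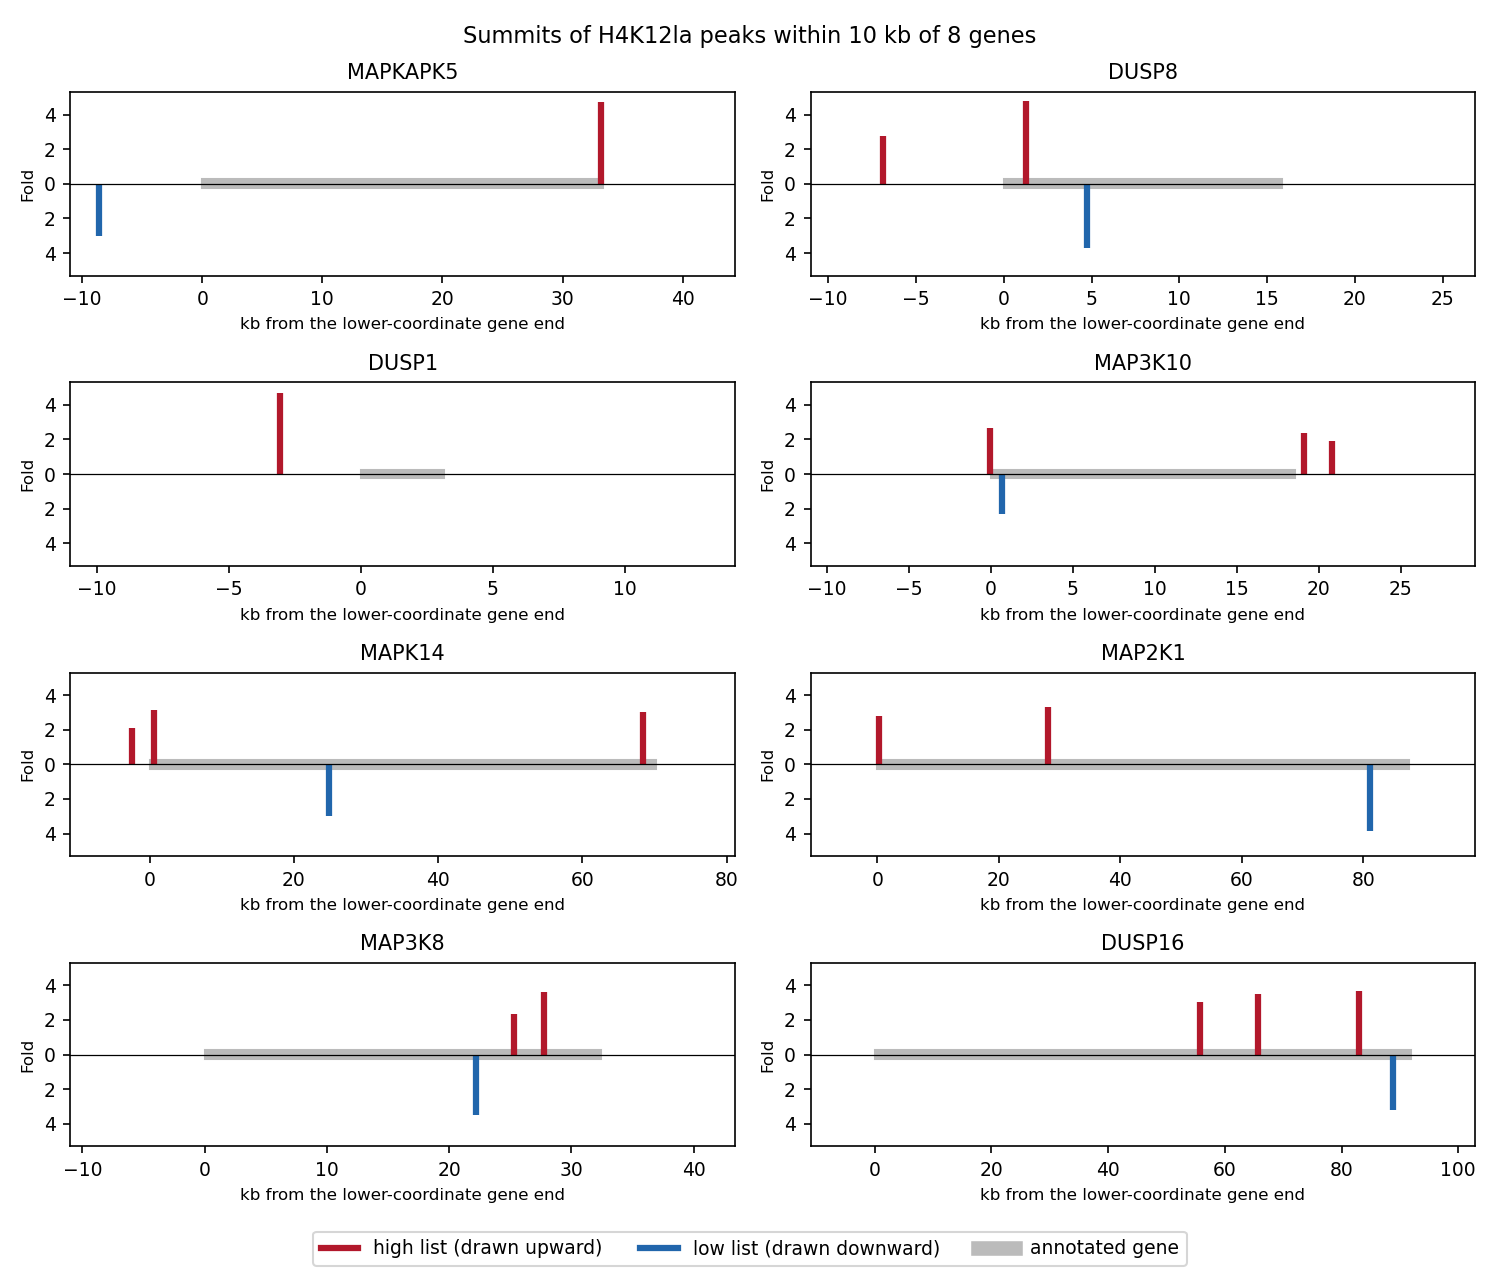
Summits of H4K12la peaks within 10 kb of 8 member genes, as distance in kb from the gene end of lower coordinate (x axis), with the fold as the height of the line (y axis). High-list peaks point up in red, low-list peaks point down in blue and the grey bar is the gene; MAPKAPK5, DUSP8 and DUSP1 carry the tallest high-list lines, and in MAP3K10 the summits of the lists stand 699 bp apart at 1 end.

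The 71 genes were next grouped by branch, with genes that act on both stress kinases kept as a class of their own. Of 19 JNK genes, 5 had a gene-end, 9 a body and 16 a 10 kb peak in the high list, and 1, 3 and 4 in the low list. Of 8 p38 genes, the high list gave 3, 6 and 6, and the low list 0, 2 and 2. Of 11 genes that act on both JNK and p38, the numbers were 1, 6 and 8, and 0, 5 and 5. Of 9 ERK genes, they were 3, 5 and 9, and 0, 2 and 2. Over all named coding genes, the high-list shares in these windows were 16.5%, 44.6% and 62.5%, and the low-list shares 3.13%, 14.9% and 21.9%. Of 4 ERK5 genes, 0 had a gene-end peak and 3 a body and a 10 kb peak in the high list, and 0, 1 and 1 did so in the low list. The remaining 20 genes had 5, 7 and 13, and 1, 3 and 5. These classes are small, and whether the branches differ was not tested.

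Gene length bears on body and 10 kb counts, and the members were somewhat long, with a median of 30880 bp. Among genes under 20 kb, 23 of 30 members (76.7%) had a high-list peak within 10 kb, against 53.5% of 7051 genes. From 20 to 60 kb it was 12 of 16 (75%) against 62.5%, and from 60 kb up 20 of 25 (80%) against 76.5%. The difference from the background in the high list was therefore widest among short members. In the low list, the shares were 13.3% against 13.7% under 20 kb, 25% against 19.6% from 20 to 60 kb and 44% against 37.1% from 60 kb up. Per Mb of gene, members held 16.5 high-list and 4.66 low-list body peaks, against 14.6 and 2.88 over all named coding genes.

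Of the 23 low-list member peaks, 10 lay on chromosome 1 and 13 on 11 other chromosomes. All 8 members on chromosome 1 had a low-list peak within 10 kb (MAP3K4, MAP3K5, MAP3K7, MAPK4, MAPK6, MAP2K1, MAP2K5 and MAP4K5), against 22% of the named coding genes of that chromosome. These members were long, from 45963 to 275190 bp, and of the 651 chromosome 1 genes of at least 45963 bp, 33.6% had a low-list peak. In the high list 5 of the 8 did, against 60.1% of all genes of the chromosome and 72.5% of those as long. With chromosome 1 left out, an alternative added after seeing the data, 11 of 63 members had a low-list peak within 10 kb (17.5%), against 21.9% of genes, and 9 had a body peak (14.3%), against 14.8%. The chromosome was picked because all its members had a peak, so leaving it out had to lower both shares. On chromosome X, where 3.61% of genes had a high-list peak, DUSP9 was the 1 of 3 members with one.

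**Figure D4:**
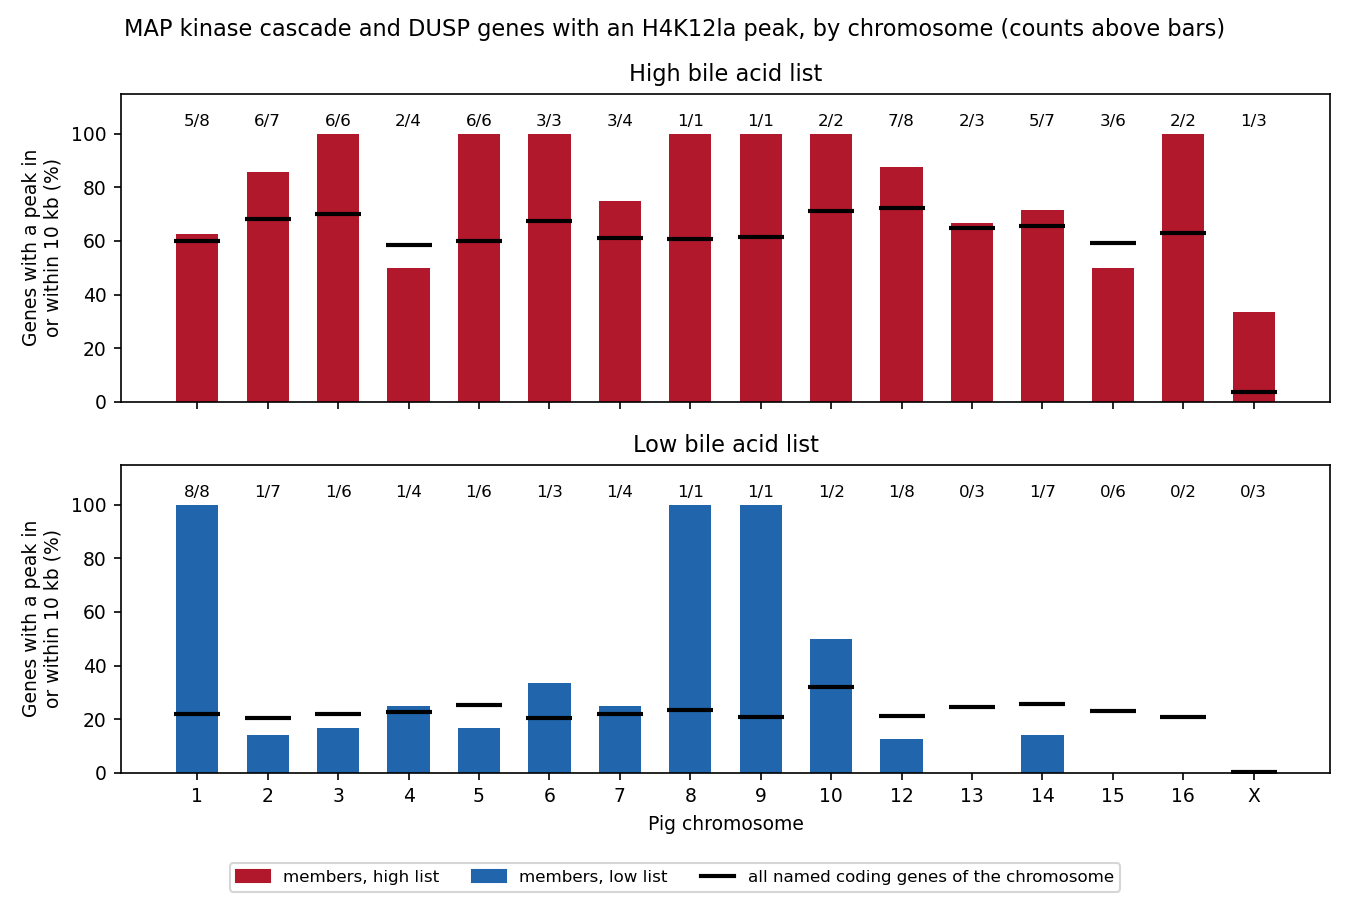
Share of member genes (%, y axis) with a peak in the gene or within 10 kb on each chromosome that holds a member (x axis), in the high list (top) and the low list (bottom), with the counts above the bars and the share of all named coding genes of the chromosome as a black line. In the low list 8 of 8 members on chromosome 1 have a peak, and no other chromosome has more than 1 member with one.

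At the 16 genes with peaks in both lists, the positions of the peaks were compared. The closest summits of the lists lay 699 to 53012 bp apart, with a median of 11089 bp, and 1 high-list peak of 109 overlapped a low-list peak, at MAP3K10 (0.917%, against 0.732% of all high-list peaks). That overlap was shorter than 50% of either peak.

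Fragment numbers set how far a missing call can be read. The high-list member peaks rested on 6 to 16 fragments (median 9) and the low-list member peaks on 8 to 17 (median 10). For each peak, the fewest fragments with which the caller would have accepted a peak in the other library were computed for the same expected number. The lower end of the exact Poisson 95% interval reached that limit for 2 of 109 high-list peaks, those of MAPKAPK5 and DUSP8, against 0.311% of all high-list peaks. For DUSP1 it was 6.92 fragments with 7 needed. In the low list, 2 of 23 peaks reached the limit of the high library, those of DUSP8 and MAP2K1, against 7.08% of all low-list peaks. A further 15 of the 109 high-list peaks had fewer fragments than a call in the low library would have needed, so the same number there would have given no peak. These limits cover counting error within 1 library per group, so for none of these peaks does a missing call in the other list show that the groups differ. The fragments of the other library at these positions are not in the lists.

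**Figure D5:**
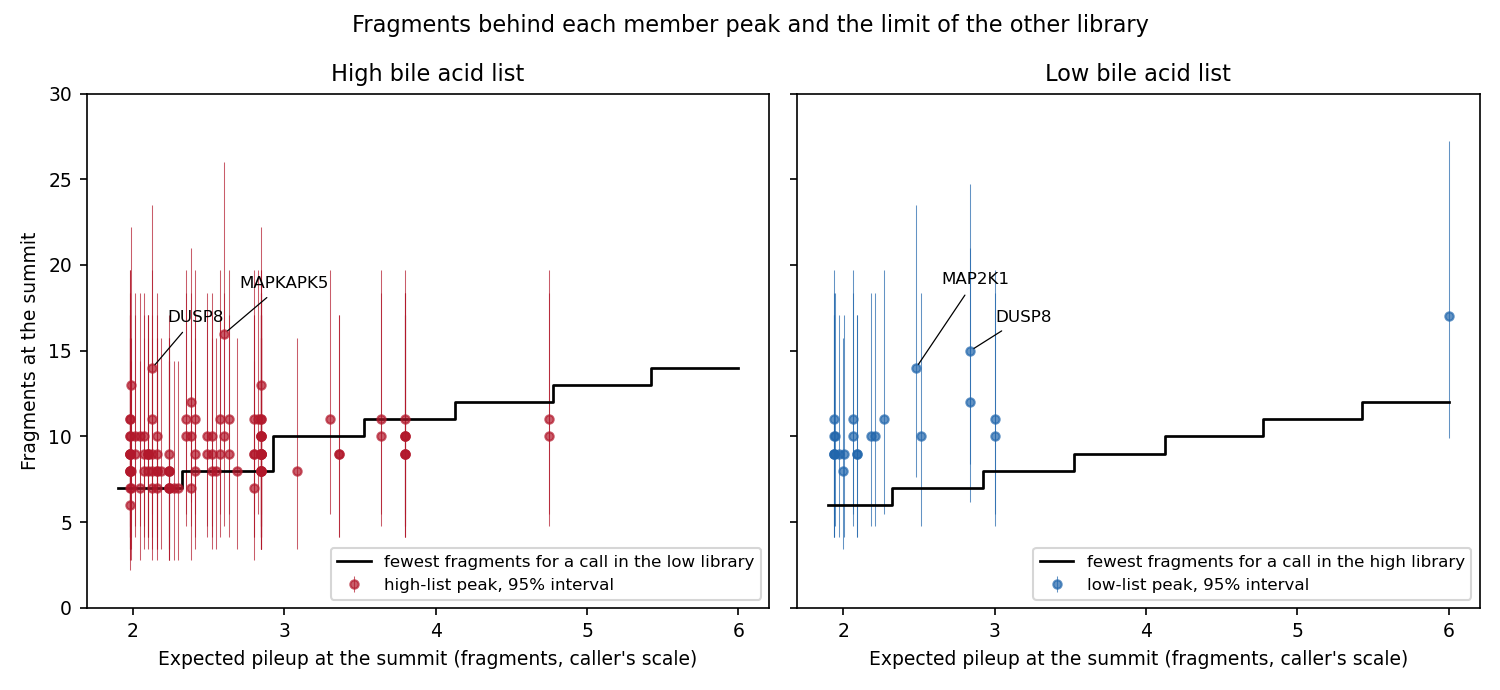
Fragments at the summit (y axis) with exact Poisson 95% intervals against the expected pileup on the caller's scale (x axis), for the 109 high-list member peaks (left) and the 23 low-list member peaks (right). The black step line is the fewest fragments that would give a call in the other library; the intervals of MAPKAPK5 and DUSP8 on the left and of MAP2K1 and DUSP8 on the right clear it.

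Genes around the cascade that are not members were counted in the same windows. Of 72 such genes, the high list marked 18 at a gene end (25%, background 16.5%) and the low list 2 (2.78%, background 3.13%). Among 10 upstream genes of the RAS arm, those with one in the high list included SOS2 (fold 3.28), an exchange factor for RAS, the adaptor GRB2 (2.60) and HRAS (2.33). Of 15 upstream stress genes, 3 had one, GADD45B at 4.03 (q 0.0735), TAOK3 at 2.60 and GADD45G at 2.56. The GADD45 proteins activate MAP3K4, the member with the strongest body peak of its tier. Whether the peaks at these genes are related was not tested.

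Of 27 target genes, 7 had a high-list gene-end peak (background 16.5%), led by FOSL1 (3.78), HSPB1 (3.44), JUN (3.19) and MKNK1 (3.12), followed by MEF2D (2.60). JUN, the endpoint of the JNK branch, had no low-list peak at a gene end. Of the 27 targets only 1 had one, against 3.13% of all named coding genes. It was MEF2D, a p38 and ERK5 target, with a fold of 2.31. Of 13 scaffold and inhibitor genes, 3 had one in the high list (KSR1 3.39, PEBP1 2.94, SPRED2 2.63), and of 7 other phosphatases 1 did, PPM1A at 3.21. In the low list PPM1B, a phosphatase of TAK1, had a gene-end fold of 3.70 (q 1). None of these gene-end peaks had q under 0.05.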

How the data were processed

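Tools named by the submitters' processing notes are MACS2 2.1.0, Bowtie 1.1.2, Trimmomatic 0.33 and bcl2fastq 2.17, and the builds named are hg38 and Sscrofa11.1. For the role of hg38 and the caller's cutoff, the sources used here give nothing. The largest p-value in the deposited lists was 0.00989 in both, and the limits below used 0.01. Per the labels' protocols, chromatin was fixed in 1% formaldehyde, 10 ng of DNA entered each library, and 13 cycles of amplification were run. In the authors' lists the fold is a ratio to local background. Each deposited peak also has a −log10 p-value, and a −log10 of its q-value. The deposited score is a display value and was not used. The input libraries entered only through the authors' caller.

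Gene positions were those of RefSeq on Sscrofa11.1, in a table without strand, and no sequence was used here, so start sites alone, motifs and promoter sequences were not analysed. Fragments and expected pileup were solved from fold and p, which gave whole fragment numbers within 0.002 in −log10 p for all but 4 high-list peaks and 1 low-list peak. The low library's pileup was multiplied by 0.881. The recovery of fragments was tested on simulated peaks made with the formula that it inverts, and the gene windows on a made-up gene. These tests cannot show whether the authors' caller used that formula, and they did not cover the call limits. Python 3.11.15, scipy 1.17.1, pandas 2.3.3 and matplotlib 3.10.9 were used. Intervals are 95% and cover counting error only, since reads without molecular identifiers are not independent molecules.

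The genes, lists and tests were chosen with earlier results of these data known. Genes named are all members with gene-end peaks or peaks in both lists, the JNK, ERK and MAP2K genes and MAPK14, in each tier the 3 others of highest fold per list, JUN, and up to 5 of the highest fold per class of other pathway genes. Other members were named after their values were seen, to account for them. Some genes that this rule names are not reported here.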

Additional observations from a re-analysis of the deposited data

How the results depend on the processing

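No paired analysis was possible because only 1 immunoprecipitated library stands for each group. The planned restriction to start sites and the motif counts were not run, since no strand and no sequence were used here. At q under 0.05 the members with gene-end, body and 10 kb peaks numbered 1, 2 and 3 in the high list, against 0.736%, 2.12% and 3.59% of all genes, and 0, 0 and 0 in the low list, against 0%, 0.0307% and 0.0613%. At a fold of 4 or more they numbered 1, 4 and 5 in the high list, against 0.865%, 2.9% and 4.62% of all genes, and 0, 0 and 0 in the low list, against 0.0797%, 0.221% and 0.337%. With the high list cut to the length of the low list they numbered 3, 14 and 18, which are 4.23%, 19.7% and 25.4% of members, against 4.63%, 15.8% and 23.9% of all genes. These lists are shorter by construction. A gene-end window of 3 kb gave 27 members in the high list (38%, against 30.3% of all genes) and 2 in the low list (2.82%, against 6.36%). With chromosome 1 left out, low-list body and 10 kb counts were 9 and 11 of 63. With an overlap of at least 50% of the shorter peak required, 0 peaks were shared. The other 12 counts stayed within 1.5 times the reported ones, among them all 6 with any overlap of the peak interval in place of the summit, at 18, 37 and 55 members in the high list and 2, 16 and 19 in the low list. Member peaks rest on 6 to 17 fragments, and sequencing depth was not varied.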

Other observations

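Gene-end peaks of the members lay mostly inside the gene. Of 19 gene-peak pairs in the high list, 14 had the summit inside (73.7%), against 59.1% of 2941 pairs over all named coding genes, and both low-list pairs did, against 58.3% of 523. Of the 19, 5 were also within 1 kb of an end of another gene. A fold of 3 or more was found for 41.3% of the high-list member peaks, against 45.2% of that list, and for 65.2% of the 23 low-list member peaks, against 47.4%. Among the MKP-type phosphatases, gene bodies held 48.0 high-list peaks per Mb (10 peaks in 0.208 Mb), against 14.6 over all named coding genes. Of these 10 peaks, 7 lay in DUSP10 and DUSP16, and 6 of the genes had none. The atypical DUSP genes held 8.81 (2 peaks in 0.227 Mb).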
